A study of Rattus norvegicus with 10 samples.

Results

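The genes described here were those coding for receptors of glutamate and GABA, the main excitatory and inhibitory transmitters of the brain, in cultured rat oligodendrocytes (OLs) and oligodendrocyte progenitor cells (OPCs) in which miR-145 was raised or blocked. They were chosen by symbol alone, as all genes of the symbol table whose name began with Gria, Grik, Grid, Grin, Grm or Gabr followed by any further letters and a number. This gave 38 of the 23487 genes counted, of which 14561 had a symbol. The 38 comprised 4 AMPA (Gria), 4 kainate (Grik), 2 delta (Grid), 7 NMDA (Grin) and 7 metabotropic (Grm) glutamate receptor genes, 13 GABA-A receptor genes (Gabr, among them the rho subunits Gabrr1, Gabrr2 and Gabrr3), and Grid2ip, which the symbol rule took in although it codes for a scaffold protein and is not itself a receptor.

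The 10 RNA libraries, a pair per group in 5 groups, were made from primary Sprague-Dawley cells. OPCs were shaken off mixed glial cultures of cerebral cortex from pups at postnatal days 1 to 3, so they were enriched and not sorted. Every library had received an oligonucleotide at 30 nM: OPCs took the miR-145-5p inhibitor (anti-miR-145 OPCs) or a scrambled inhibitor (control OPCs) and were collected 24 h later, and OLs took the miR-145-5p mimic (miR-145 OLs), the miR-145-5p and miR-219 mimics together (miR-145/miR-219 OLs) or a scrambled mimic (control OLs) and were collected 5 days later. The treatment tag of the miR-145 OLs also names miR-219, whereas their titles name miR-145 alone, and the titles were followed. The study's methods name lentivirus for the OL libraries, whereas its results and the labels name mimics, and the labels were followed. The labels do not say that the 2 libraries of a group came from separate cultures. A general statement of the study counts each replicate of a primary culture as the cells of a separate animal, without naming these libraries, so p-values are read here as measuring only the spread between them, which may be technical.

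AMPA, kainate and NMDA receptors are glutamate-gated cation channels built of several subunits, delta receptors are their relatives at synapses, and metabotropic receptors signal through G proteins. GABA-A receptors are chloride channels of several subunits, typically alpha, beta and gamma. OPCs carry many of these receptors and receive synapses from neurons, and much of this equipment is known to be lost when they become OLs. MicroRNAs lower the messengers that they pair with, chiefly through the seed, bases 2 to 8 of the mature strand.

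The mature strands are shown because they define the mimics, the labels stating that the miR-145-5p mimic equals the natural strand. They were read from RefSeq, the seed is in capitals, and the arm of miR-219 is not given in the labels, so the 5p strand of miR-219a is shown as RefSeq lists it. The seeds UCCAGUU and GAUUGUC differ. Target sites in the receptor messengers were not analysed here.
rno-miR-145-5p: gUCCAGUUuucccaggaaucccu
rno-miR-219a-5p: uGAUUGUCcaaacgcaauucu

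Between 33505706 and 42684206 reads were assigned per library. Levels are given as CPM (counts relative to library size, scaled across all 10 libraries), on which 3 counts, taken as the lower limit of detection, were worth 0.0690 to 0.0920 CPM. The labelled stage matched its markers: the summed CPM of 10 oligodendrocyte genes such as Mbp ran from 16111 to 35454 in the 6 OL libraries against 1121 to 1326 in the 4 OPC libraries, and 6 progenitor genes such as Pdgfra summed to 1166 to 1843 against 3763 to 4849. Genes of other cells were present. Astrocyte markers, 8 genes with Gfap at 4173 to 9675 CPM in OLs, summed to 5214 to 12481 CPM in OLs and 402 to 655 in OPCs. Microglial markers, 10 genes, summed to 345 to 959.7 and 841 to 1055. The 12 neuronal markers that were measured summed to 135 to 162 and 138 to 202, and genes of this list differed in direction. Rbfox3, which marks mature neurons, was at 1.26 to 2.16 in OLs and 5.36 to 10.7 in OPCs. Tubb3 was at 82.2 to 110 in OLs and 26.7 to 65.1 in OPCs. None of these lists had a measured gene at 0 in every library. In such bulk RNA, fewer cells of a type and less RNA per cell cannot be told apart.

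All 38 genes had counts. A group mean of at least 5 CPM was reached by 22 of them, while the other 16 stayed below that mean in every group and reached at most 5.59 CPM in any library. The levels of different genes are not ranked here, because no transcript lengths were used. In OLs the replicates differed in a common direction: replicate 1 was above replicate 2 in all 3 OL groups for 16 of the 22 genes, and below it in all 3 for 1 (Grik2). The same replicate 1 libraries had the higher astrocyte sum in each OL group (6214, 12481 and 10265 CPM against 5214, 8546 and 6176) and the lower oligodendrocyte sum (17604, 16111 and 20020.5 against 32415, 25842 and 35454). The part of cell makeup in this was not tested.

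**Figure D1:**
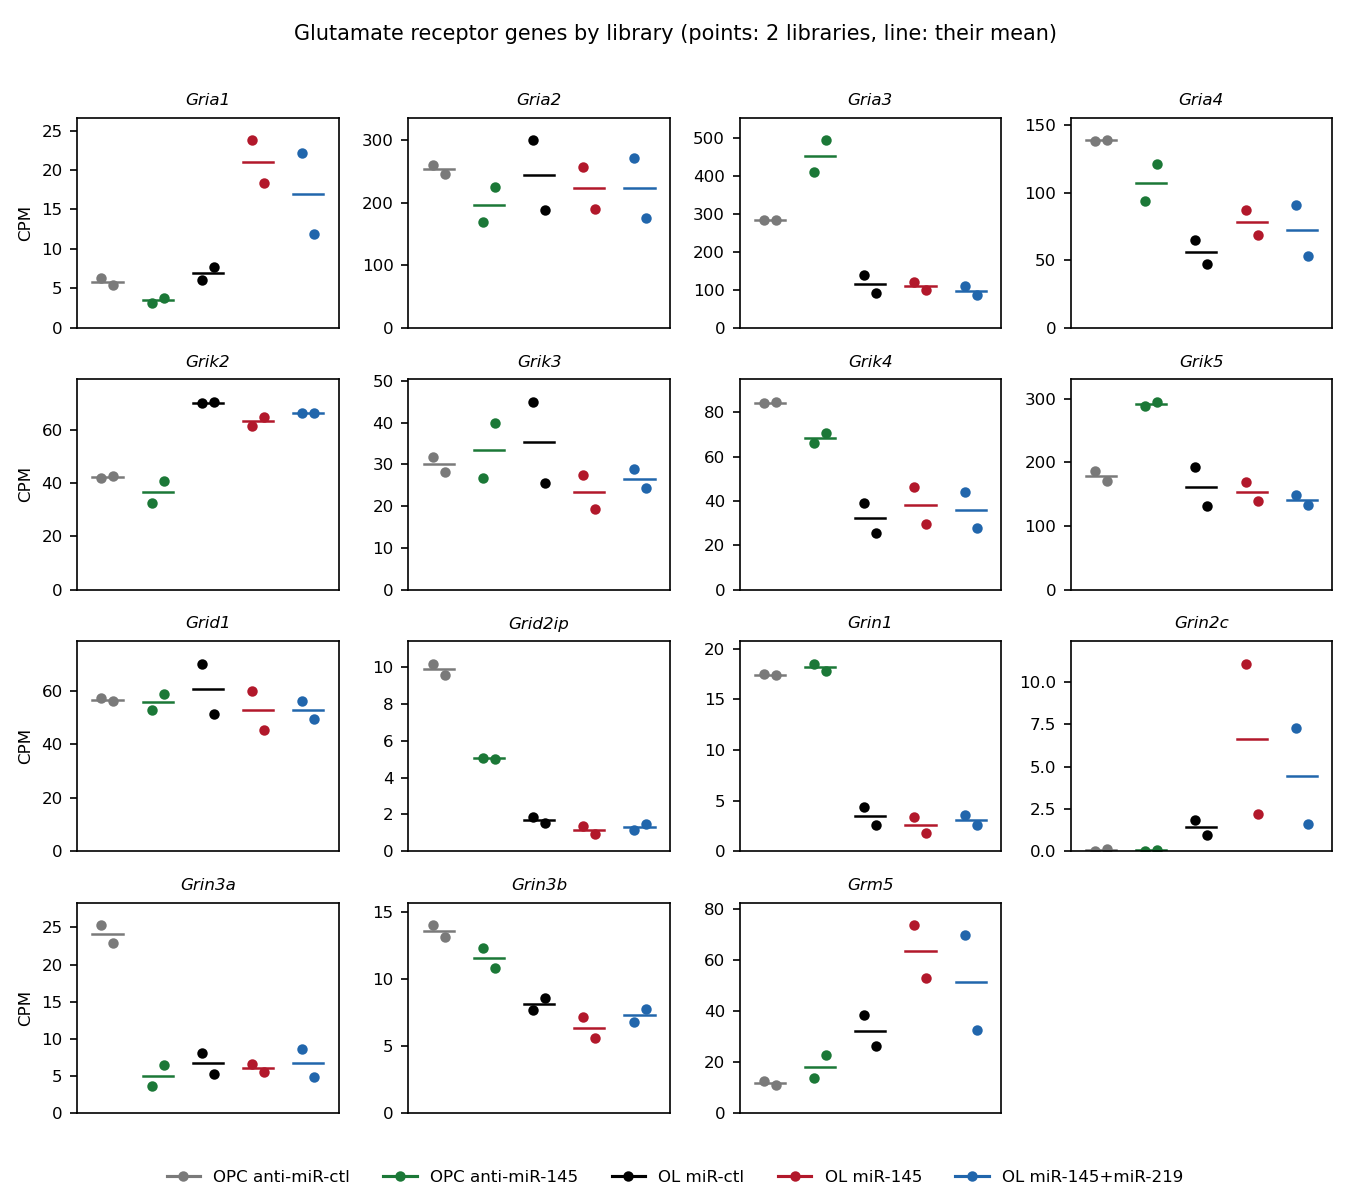
Level of the glutamate receptor genes reported by name that reached a group mean of 5 CPM, and of Grid2ip, on a linear axis in CPM, one panel per gene. Points are the 2 libraries of a group, replicate 1 on the left, and lines their mean. Grin3a stood at 25.3 and 22.8 CPM in control OPCs and at most 8.67 in every other group, and Gria1 was at 11.8 CPM or more in the 4 libraries that took the miR-145 mimic and at most 7.70 in the other 6.

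Across all genes, an edgeR quasi-likelihood test with Benjamini-Hochberg adjustment called a gene at an adjusted p under 0.05. Between control OLs and control OPCs, 36 of the 38 could be tested and 23 were called (63.9%): 7 were higher in OLs, with 28.8% of all genes called higher, and 16 were lower, with 28.7% of all genes called lower. At the median, log2 fold changes were -0.44 over the receptor genes and 0.0072 over all genes. These groups also differ in the control oligonucleotide and in the time after transfection, which cannot be told apart from the stage. Blocking miR-145 in OPCs gave 13 calls among 35 tested (37.1%), 2 of them higher with 12.1% of all genes called higher and 11 lower with 16% called lower. Here the median was -0.39 against 0.0045 over all genes. In OLs the miR-145 mimic gave no call among 33 receptor genes, and 0% of all genes were called, so that comparison could single out nothing at this threshold.

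Leaving out 1 library at a time moved the counts. The stage comparison gave 15 calls without replicate 1 of control OPCs (4842 of the 15182 genes tested were called) and 14 without replicate 2 (4780 of 15214), against 23 (9042 of 15721) with all libraries, and 13 of the 23 genes were called in all 4 such fits. The inhibitor comparison gave 8 calls without replicate 1 of control OPCs (2348 of 15138 genes) and 7 when all 5 groups shared 1 fit (2553 of 16339), against 13 (4348 of 15496), and 8 of the 13 genes (among them Gria3, Grik5, Grid2ip, Grin3a, Gabra2 and Gabra4) were called in all 4 fits that left out a library. In these fits the lone library of a group was taken to vary like the pair of the other group. Calls were also gained: Gria2, Gria4, Gabra3, Grin3b, Grik3 and Grm5 without replicate 1 of anti-miR-145 OPCs, and Gria2, Gria4, Gabrg1, Gabrg3, Grin2a, Grin2b and Grik2 without replicate 2. Between the stages the genes gained were Gria2, Gabra4 and Grik5 without replicate 1 of control OLs, and Gria2, Grid1, Grik3 and Grm8 without replicate 2.

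DESeq2, the tool of the study, called 15 receptor genes in the inhibitor comparison, with 26.5% of all genes called. It added Gria2 (adjusted p = 0.0252), Gria4 (0.0184), Gabrg1 (0.0441) and Grm5 (0.0386) and did not call Gabra5 (0.0928) or Grm2 (0.115). Between the stages it called 22, with 53.4% of all genes called, the 1 gene lost being Grin2b (adjusted p = 0.0764). With all 5 groups in 1 edgeR fit, the inhibitor calls of Gria1, Gria3, Gabra5, Gabrb1, Grik4 and Grm2 were lost, and between the stages those of Gabrb1 and Grin2b were lost and Grm8 was gained.

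**Figure D2:**
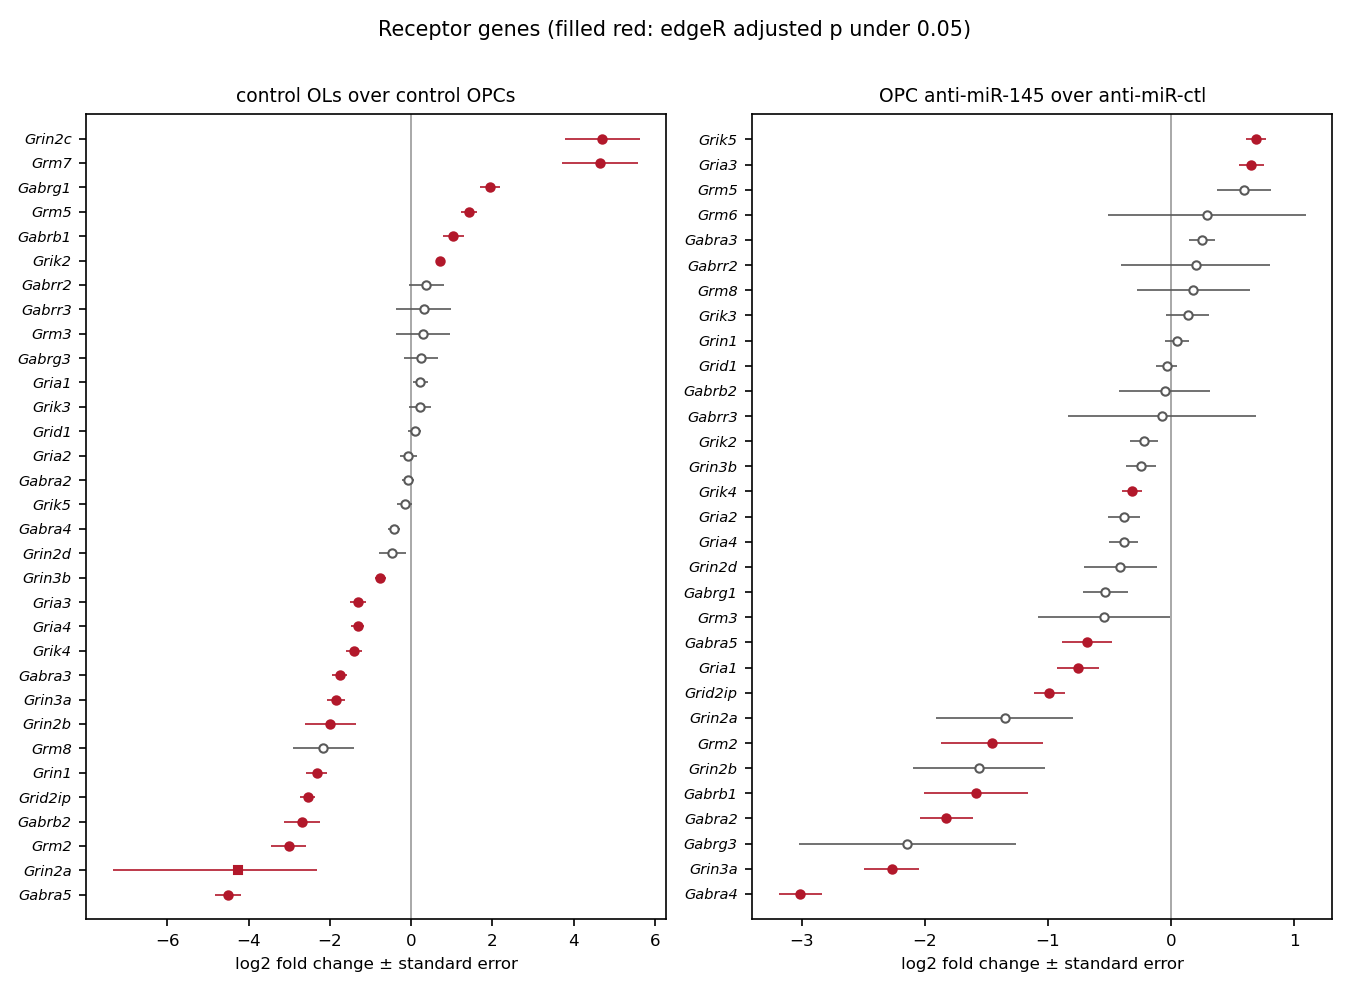
Log2 fold change of the receptor genes reported by name, with its standard error, for control OLs over control OPCs (left) and anti-miR-145 over control OPCs (right). Filled red symbols passed an adjusted p of 0.05. The square (Grin2a) marks a ratio of counts with its 95% counting interval. Of the red points drawn, 13 of 19 (left) and 9 of 11 (right) lie left of 0. With all receptor genes these were 16 of 23 and 11 of 13. Over all genes, 28.8% were called higher and 28.7% lower on the left, and 12.1% and 16% on the right. The panels share the control OPC libraries.

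AMPA receptors carry fast excitation, and Gria2 codes for the subunit that makes them impermeable to calcium. Of the 4 genes, 2 were lower in control OLs than in control OPCs and 2 did not pass the test, and the inhibitor raised 1 and lowered 1. Of all genes tested, 28.8% were called higher and 28.7% lower in control OLs, and 12.1% higher and 16% lower with the inhibitor. Gria1 stood at 6.28 and 5.36 CPM in control OPCs, 3.17 and 3.79 in anti-miR-145 OPCs, 6.10 and 7.70 in control OLs, 23.8 and 18.3 in miR-145 OLs and 22.1 and 11.8 in miR-145/miR-219 OLs. All 4 libraries that took the miR-145 mimic were above both control OL libraries, and both anti-miR-145 OPC libraries were below both control OPC libraries. Gria1 fell in anti-miR-145 OPCs (log2 fold change -0.76, SE 0.17, adjusted p = 0.0172), a call lost without replicate 1 of control OPCs. Gria2 was measured at 260.2 and 247 CPM in control OPCs, 168 and 224 in anti-miR-145 OPCs, 300.2 and 189 in control OLs, 257 and 191 in miR-145 OLs and 271 and 176 in miR-145/miR-219 OLs. Its OL groups overlapped. Between control OLs and control OPCs its log2 fold change was -0.06 and not called, but 0.24 without replicate 2 of control OLs and -0.42 without replicate 1, both called. The inhibitor contrast did not pass the test (log2 fold change -0.38, SE 0.13, adjusted p = 0.0684). Gria3 had 285 and 285 CPM in control OPCs, 409.9 and 496 in anti-miR-145 OPCs, 139 and 92.3 in control OLs, 119.8 and 98.9 in miR-145 OLs and 111 and 85.4 in miR-145/miR-219 OLs. This was the one AMPA gene that rose with the inhibitor (log2 fold change 0.65, SE 0.10, adjusted p = 0.00383), a call lost with all 5 groups in 1 fit (edgeR adjusted p = 0.0666), and it was lower in control OLs than in control OPCs (log2 fold change -1.31, SE 0.20, adjusted p = 0.00375). Gria4 was at 139 and 139 CPM in control OPCs, 93.8 and 121 in anti-miR-145 OPCs, 65.3 and 47.1 in control OLs, 87.6 and 69.1 in miR-145 OLs and 90.8 and 53.4 in miR-145/miR-219 OLs. Control OLs were lower than control OPCs (log2 fold change -1.32, SE 0.16, adjusted p = 0.00182), whereas the lower level in anti-miR-145 OPCs did not pass the edgeR test (log2 fold change -0.39, SE 0.12, adjusted p = 0.0511) but was called by DESeq2.

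The makeup of the AMPA counts differed too. Gria3 took 41.3 and 42.1% of the counts of the 4 AMPA genes in the control OPC libraries and 60.7 and 58.6% in the anti-miR-145 OPC libraries, while Gria2 took 37.7 and 36.5% and then 24.9 and 26.6%. In control OLs Gria2 held 58.7 and 56.2%. Gria1 made up 1.19 and 2.29% there, 4.87 and 4.87% in miR-145 OLs and 4.46 and 3.62% in miR-145/miR-219 OLs. These are shares of counts that were not corrected for length, so they follow each gene across groups and do not rank subunits.

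**Figure D3:**
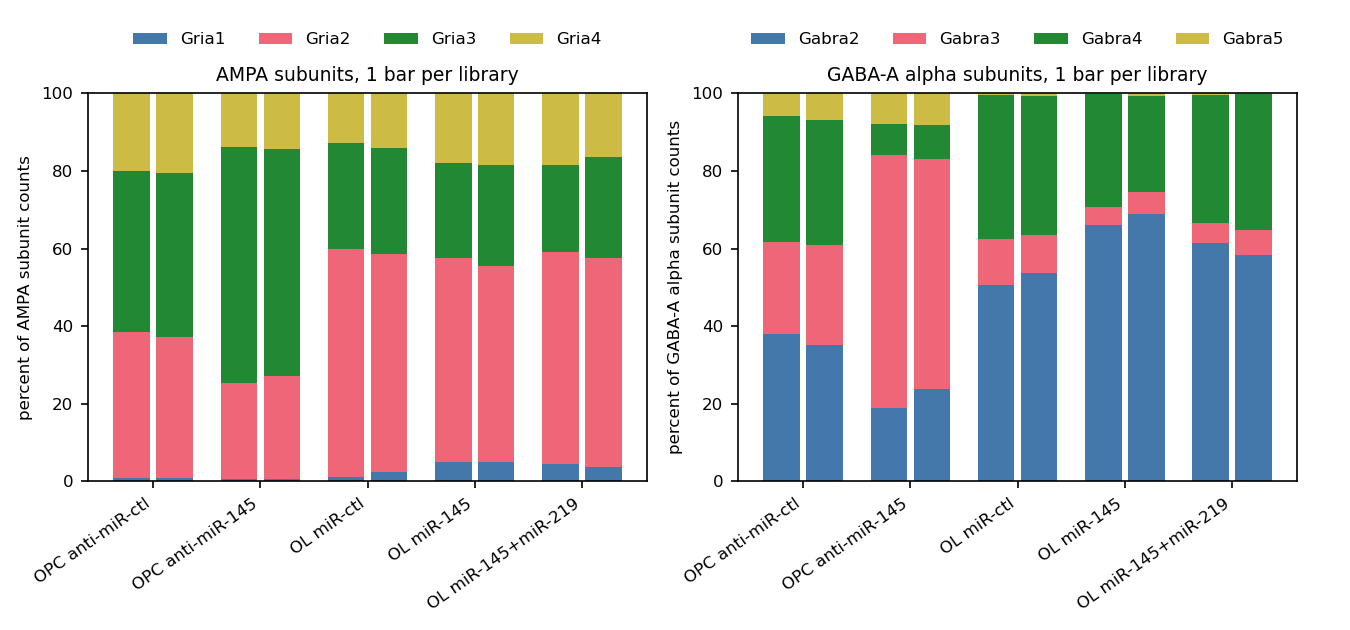
Share of the counts of the 4 AMPA genes (left) and of 4 GABA-A alpha genes (right) in each library, in percent, with 1 bar per library and 2 bars per group. Gria3 held 60.7 and 58.6% in the anti-miR-145 OPC libraries against 41.3 and 42.1% in control OPCs, and Gabra3 held 65.3 and 59.2% there against 23.8 and 25.9% in control OPCs. The level of Gabra3 itself was not called with the inhibitor. The 4 alpha genes summed to 24.1 and 30.4 CPM in anti-miR-145 OPCs against 60.5 and 52.7 in control OPCs.

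Kainate receptors join the low-affinity subunits Grik2 and Grik3 with the high-affinity subunits Grik4 and Grik5. Of the 4 genes, 1 was higher and 1 lower in control OLs than in control OPCs, and with the inhibitor 1 rose and 1 fell. The shares over all genes were 28.8% higher and 28.7% lower in control OLs, and 12.1% higher and 16% lower with the inhibitor. Grik2 was at 41.9 and 42.6 CPM in control OPCs, 32.7 and 40.7 in anti-miR-145 OPCs, 70.1 and 70.6 in control OLs, 61.6 and 64.9 in miR-145 OLs and 66.4 and 66.5 in miR-145/miR-219 OLs. It was higher in control OLs than in control OPCs (log2 fold change 0.72, SE 0.07, adjusted p = 0.001), the 6 OL libraries lying between 61.6 and 70.6 CPM. Grik4 had 84.1 and 84.8 CPM in control OPCs, 66.3 and 70.6 in anti-miR-145 OPCs, 39.0 and 25.4 in control OLs, 46.2 and 29.8 in miR-145 OLs and 44.0 and 27.6 in miR-145/miR-219 OLs. Grik4 was lower in control OLs than in control OPCs (log2 fold change -1.40, SE 0.20, adjusted p = 0.00329). In OPCs it fell slightly with the inhibitor (log2 fold change -0.32, SE 0.08, adjusted p = 0.0255), a call lost when either control OPC library was left out. Grik5 stood at 186 and 172 CPM in control OPCs, 288 and 296 in anti-miR-145 OPCs, 192 and 131 in control OLs, 169 and 139 in miR-145 OLs and 149 and 134 in miR-145/miR-219 OLs. Both anti-miR-145 OPC libraries were above all 8 others, and the rise passed the test (log2 fold change 0.69, SE 0.08, adjusted p = 0.00115). Grik3 was at 31.9 and 28.3 CPM in control OPCs, 26.7 and 40.0 in anti-miR-145 OPCs, 45.0 and 25.7 in control OLs, 27.4 and 19.4 in miR-145 OLs and 28.9 and 24.2 in miR-145/miR-219 OLs. It was called in neither comparison, with log2 fold changes of 0.22 for stage and 0.14 for the inhibitor. Among the kainate counts, Grik5 took 54.1 and 52.4% in control OPCs and 69.6 and 66.1% in anti-miR-145 OPCs.

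Delta receptors resemble the other ionotropic receptors but are held at synapses by secreted cerebellins. Grid1 stood at 57.2 and 56.0 CPM in control OPCs, 52.8 and 58.7 in anti-miR-145 OPCs, 70.1 and 51.1 in control OLs, 59.9 and 45.4 in miR-145 OLs and 56.0 and 49.3 in miR-145/miR-219 OLs. No comparison called it, and with both mimics its log2 fold change was -0.20. Grid2ip, the scaffold protein, had 10.2 and 9.60 CPM in control OPCs, 5.05 and 5.04 in anti-miR-145 OPCs, 1.88 and 1.53 in control OLs, 1.35 and 0.960 in miR-145 OLs and 1.18 and 1.46 in miR-145/miR-219 OLs. It was lower in control OLs (log2 fold change -2.54, SE 0.18, adjusted p = 0.000299) and fell with the inhibitor (log2 fold change -0.99, SE 0.12, adjusted p = 0.00147), both anti-miR-145 libraries lying near 5.05 CPM.

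NMDA receptors need the Grin1 subunit, which joins Grin2 subunits for ordinary channels or Grin3 subunits, which give glycine-gated, magnesium-insensitive ones. All 7 were tested between the stages, and 5 were lower and 1 higher in control OLs, whereas with the inhibitor 1 of the 6 tested fell and none rose. The shares over all genes were 28.7% lower and 28.8% higher in control OLs, and 16% lower and 12.1% higher with the inhibitor. Grin1 was at 17.5 and 17.4 CPM in control OPCs, 18.6 and 17.8 in anti-miR-145 OPCs, 4.39 and 2.61 in control OLs, 3.39 and 1.82 in miR-145 OLs and 3.54 and 2.58 in miR-145/miR-219 OLs. It was lower in control OLs than in control OPCs (log2 fold change -2.32, SE 0.25, adjusted p = 0.00124), and did not differ detectably with the inhibitor (log2 fold change 0.05, adjusted p = 0.749). Grin3a stood at 25.3 and 22.8 CPM in control OPCs, 3.64 and 6.42 in anti-miR-145 OPCs, 8.13 and 5.30 in control OLs, 6.55 and 5.58 in miR-145 OLs and 8.67 and 4.92 in miR-145/miR-219 OLs. The control OPCs alone were high: Grin3a was lower in control OLs (log2 fold change -1.85, SE 0.22, adjusted p = 0.00161) and fell with the inhibitor (log2 fold change -2.27, SE 0.23, adjusted p = 0.000513). Grin3b had 14.0 and 13.2 CPM in control OPCs, 12.4 and 10.8 in anti-miR-145 OPCs, 7.68 and 8.58 in control OLs, 7.16 and 5.61 in miR-145 OLs and 6.78 and 7.81 in miR-145/miR-219 OLs. It was lower in control OLs (log2 fold change -0.76, SE 0.13, adjusted p = 0.0056), a call lost without either control OPC library, and not called with the inhibitor (log2 fold change -0.24, SE 0.12, adjusted p = 0.17). Within the NMDA counts Grin1 took 29.3 and 31.1% in control OPCs and 52.0 and 48.0% in anti-miR-145 OPCs, and Grin3a went from 42.3 and 40.9% to 10.2 and 17.2%.

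Of the Grin2 genes, Grin2c alone reached a group mean of 5 CPM. Grin2c was at 0 and 0.109 CPM in control OPCs, 0.0251 and 0.0920 in anti-miR-145 OPCs, 1.86 and 0.981 in control OLs, 11.1 and 2.20 in miR-145 OLs and 7.29 and 1.60 in miR-145/miR-219 OLs. It was higher in control OLs than in control OPCs (log2 fold change 4.71, SE 0.91, adjusted p = 0.00877), with 0 and 4 counts in the OPC libraries, and was not tested when either control OL library was left out. In each OL group replicate 1 was the higher library, by several times where the mimics were present. Grin2a had 30 and 12 counts in control OPCs and 0 and 2 in control OLs, a ratio of 19.1 (95% exact counting interval 4.96 to 162, counting error only), and was called lower in OLs (adjusted p = 0.0181), though not tested when either control OPC library was left out. Its levels were 0.692 and 0.328 CPM in control OPCs, 0.126 and 0.276 in anti-miR-145 OPCs, 0 and 0.0613 in control OLs, 0.0575 and 0.126 in miR-145 OLs and 0.221 and 0.112 in miR-145/miR-219 OLs. Grin2b stood at 0.739 and 0.657 CPM in control OPCs, 0.101 and 0.368 in anti-miR-145 OPCs, 0.276 and 0.0613 in control OLs, 0.287 and 0.303 in miR-145 OLs and 0.319 and 0.0843 in miR-145/miR-219 OLs. The stage difference passed the test (log2 fold change -1.99, SE 0.62, adjusted p = 0.0416), but not without either control OPC library and not in DESeq2. Grin2d was called nowhere, its libraries ranging from 0.638 to 1.52 CPM.

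Of the metabotropic receptors, Grm5 couples to calcium release, and Grm2, Grm3, Grm6, Grm7 and Grm8 lower cyclic AMP. Between the stages 2 of the 6 tested were higher and 2 lower in control OLs, and with the inhibitor 1 of 6 fell and none rose. The shares over all genes were 28.8% higher and 28.7% lower in control OLs, and 16% lower and 12.1% higher with the inhibitor. Grm5, which OPCs and astrocytes are known to carry, was at 12.8 and 11.1 CPM in control OPCs, 13.7 and 22.7 in anti-miR-145 OPCs, 38.3 and 26.4 in control OLs, 73.8 and 53.2 in miR-145 OLs and 70.0 and 32.6 in miR-145/miR-219 OLs. It was higher in control OLs than in control OPCs (log2 fold change 1.43, SE 0.20, adjusted p = 0.00306), and not called with the inhibitor (log2 fold change 0.59, SE 0.22, adjusted p = 0.0853). Every library of the miR-145 OLs was above every control OL library, whereas the miR-145/miR-219 OLs overlapped them. Grm2 had 0.716 and 0.876 CPM in control OPCs, 0.377 and 0.207 in anti-miR-145 OPCs, 0.10 and 0.0920 in control OLs, 0.201 and 0.0758 in miR-145 OLs and 0.147 and 0.0562 in miR-145/miR-219 OLs. Control OLs had less (log2 fold change -3.01, SE 0.43, adjusted p = 0.00315), though the gene was tested in 2 of the 4 fits that left out a library, and it fell with the inhibitor (log2 fold change -1.46, SE 0.41, adjusted p = 0.0391), the latter call lost without any one of 3 of the 4 libraries and in DESeq2. Grm7 was at 0.0692 and 0.137 CPM in control OPCs, 0 and 0.0920 in anti-miR-145 OPCs, 1.03 and 4.32 in control OLs, 1.87 and 2.35 in miR-145 OLs and 2.33 and 5.59 in miR-145/miR-219 OLs. It was higher in control OLs (log2 fold change 4.66, SE 0.94, adjusted p = 0.00983), with both control OPC libraries near the limit of detection and the call lost without either of them. Grm3, Grm6 and Grm8 stayed at or below 0.477 CPM in every library and were called in no comparison of all 4 libraries.

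Of the 13 GABA-A genes, 12 were tested in each comparison with control OPCs: 2 were higher and 5 lower in control OLs, and with the inhibitor 5 fell and none rose. The shares over all genes were 28.8% higher and 28.7% lower in control OLs, and 16% lower and 12.1% higher with the inhibitor. A group of 4 of them lies together. In the order of RefSeq genes (GRCr8) on chromosome 14, Gabrb1 and Gabra4 are neighbours, 1 protein-coding gene (Cox7b2) follows, and then come Gabra2 and Gabrg1, so that the group supplies alpha, beta and gamma subunits. RefSeq windows upstream of a start were at hand for 24 of the 38 genes, among them 3 of these 4, Gabra2 having none. The 250 bases before the listed start are shown for the 3, since these genes are described together in what follows.

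Capitals mark matches, on either strand, to 4 motifs chosen after the sequences were read: the GC box GGGCGG, the CCAAT box CCAAT, the TATA box TATAAA and GCGCATGC, a core of the NRF1 site. The coordinates are chr14:36902894-36903143 on the minus strand for Gabrb1, chr14:36944497-36944746 on the plus strand for Gabra4 and chr14:37750042-37750291 on the plus strand for Gabrg1, all GRCr8, and each run is written toward its gene. By the annotation the windows of Gabra4 and Gabrg1 end at the first base before their genes, while that of Gabrb1 precedes 1 listed start inside the gene's span.
Gabrb1: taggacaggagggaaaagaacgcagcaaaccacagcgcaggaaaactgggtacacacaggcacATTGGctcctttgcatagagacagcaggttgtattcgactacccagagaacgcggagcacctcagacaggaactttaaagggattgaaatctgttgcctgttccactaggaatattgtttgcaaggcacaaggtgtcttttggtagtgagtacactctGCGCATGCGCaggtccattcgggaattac
Gabra4: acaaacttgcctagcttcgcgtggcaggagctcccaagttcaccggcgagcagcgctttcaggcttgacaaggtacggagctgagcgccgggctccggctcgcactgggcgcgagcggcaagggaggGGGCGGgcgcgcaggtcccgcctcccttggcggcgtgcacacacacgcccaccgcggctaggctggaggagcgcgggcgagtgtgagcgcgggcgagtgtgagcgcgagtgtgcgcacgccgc
Gabrg1: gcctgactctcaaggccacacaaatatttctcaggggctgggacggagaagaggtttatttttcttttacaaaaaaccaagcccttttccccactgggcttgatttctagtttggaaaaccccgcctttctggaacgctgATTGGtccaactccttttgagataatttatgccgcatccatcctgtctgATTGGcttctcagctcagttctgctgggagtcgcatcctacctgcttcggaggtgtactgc
The GC content was 49.2% for Gabrb1, 71.6% for Gabra4 and 48.4% for Gabrg1, against a median of 51.2% over all 33469 windows of that length. Gabrb1 held 1 CCAAT box and 2 overlapping matches to the NRF1 core, Gabra4 held 1 GC box and Gabrg1 held 2 CCAAT boxes. Of all windows, 30.5% held a GC box, 34.0% a CCAAT box, 12.9% a TATA box and 2.20% the NRF1 core. No motif was common to the 3 windows.

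Gabra4, an alpha subunit found in extrasynaptic receptors, stood at 19.8 and 17.0 CPM in control OPCs, 1.91 and 2.69 in anti-miR-145 OPCs, 15.4 and 12.5 in control OLs, 26.2 and 16.8 in miR-145 OLs and 32.1 and 16.4 in miR-145/miR-219 OLs. Blocking miR-145 lowered both OPC libraries to at most 2.69 CPM, the largest fall among the receptor genes called (log2 fold change -3.01, SE 0.18, adjusted p = 8.77e-05), equal to 8.06-fold. Gabra2, a synaptic alpha subunit, was at 22.9 and 18.4 CPM in control OPCs, 4.52 and 7.24 in anti-miR-145 OPCs, 20.9 and 18.7 in control OLs, 59.6 and 46.7 in miR-145 OLs and 59.6 and 27.4 in miR-145/miR-219 OLs. It fell as well with the inhibitor (log2 fold change -1.83, SE 0.21, adjusted p = 0.00109). Gabrb1, a beta subunit, had 1.94 and 1.37 CPM in control OPCs, 0.327 and 0.782 in anti-miR-145 OPCs, 3.69 and 3.19 in control OLs, 8.54 and 6.52 in miR-145 OLs and 8.94 and 4.80 in miR-145/miR-219 OLs. This gene fell with the inhibitor (log2 fold change -1.58, SE 0.42, adjusted p = 0.0314), a call lost without replicate 1 of control OPCs, and was higher in control OLs than in control OPCs (log2 fold change 1.04, SE 0.26, adjusted p = 0.0203), a call lost without either control OPC library. Gabrg1, a gamma subunit, was at 17.5 and 16.8 CPM in control OPCs, 9.43 and 14.6 in anti-miR-145 OPCs, 51.1 and 82.9 in control OLs, 91.2 and 81.4 in miR-145 OLs and 99.1 and 93.9 in miR-145/miR-219 OLs. It was higher in control OLs (log2 fold change 1.95, SE 0.24, adjusted p = 0.00191), and its lower level with the inhibitor did not pass the test (log2 fold change -0.53, SE 0.19, adjusted p = 0.0739). Neither Gabra2 nor Gabra4 was called between the stages, with adjusted p = 0.683 and 0.0632.

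**Figure D4:**
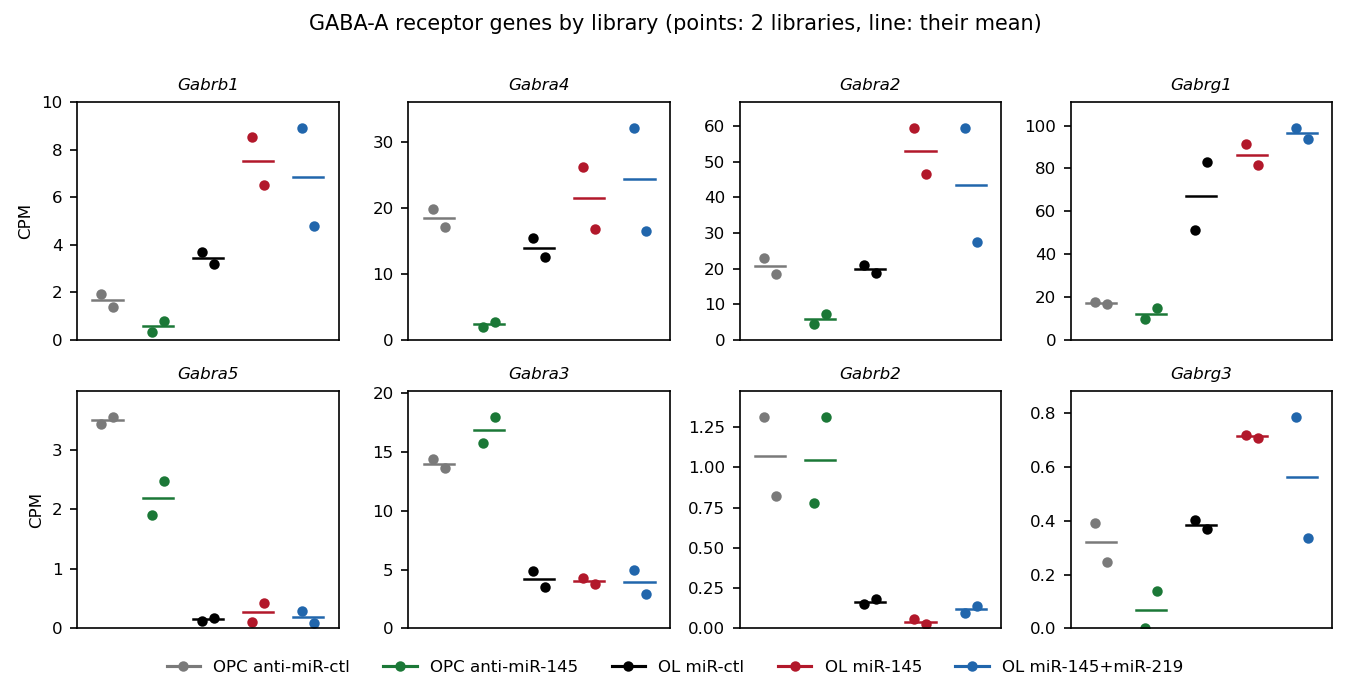
Level of 8 GABA-A receptor genes in CPM on a linear axis, the 4 of the chromosome 14 group in the upper row. Points are the 2 libraries of a group, replicate 1 on the left, and lines their mean. In the upper row the anti-miR-145 OPCs lie below the control OPCs for all 4 genes. For Gabra2, Gabra4 and Gabrb1 both mimic groups lie above control OLs without overlap, though edgeR called none of them. Of all genes, 47.3% (miR-145 mimic) and 36.8% (both mimics) did not overlap in either direction. The mimic groups are set against the same control OL libraries.

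The mimic and inhibitor comparisons share no library, and their fitted values are set side by side here for the chromosome 14 group. For Gabra2 the log2 fold change was 1.43 with the mimic in OLs and -1.83 with the inhibitor in OPCs. Those of Gabra4 were 0.63 and -3.01, of Gabrb1 1.13 and -1.58, and of Gabrg1 0.37 and -0.53. None of the 4 mimic values passed the unpaired edgeR test, while DESeq2 called those of Gabra2 and Gabrb1. With the replicate number as a block edgeR called all 4, but the labels do not tie replicate numbers to cultures. Over all 30 receptor genes tested in both comparisons the signs were opposite for 17 (56.7%), against 52% of the 14852 genes tested in both. Higher with the mimic and lower with the inhibitor were 12 of the 30, against 24.3% of all genes. The signs were the same for 13, among them Grm5 at 0.98 and 0.59. No test was made of this.

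Of the other GABA-A genes, 5 were called lower in control OLs than in control OPCs and none higher. Of all genes, 28.7% were called lower and 28.8% higher. The 2 GABA-A genes called higher, Gabrb1 and Gabrg1, were described above with the chromosome 14 group. Gabra5, an alpha subunit, had 3.44 and 3.56 CPM in control OPCs, 1.91 and 2.48 in anti-miR-145 OPCs, 0.126 and 0.184 in control OLs, 0.115 and 0.430 in miR-145 OLs and 0.295 and 0.0843 in miR-145/miR-219 OLs. Control OLs were lower (log2 fold change -4.50, SE 0.32, adjusted p = 0.000293), and so were anti-miR-145 OPCs (log2 fold change -0.68, SE 0.20, adjusted p = 0.0442), the latter a call that held in 1 of the 4 fits that left out a library and not in DESeq2. Gabra3 stood at 14.4 and 13.6 CPM in control OPCs, 15.7 and 18.0 in anti-miR-145 OPCs, 4.85 and 3.50 in control OLs, 4.31 and 3.82 in miR-145 OLs and 4.94 and 2.95 in miR-145/miR-219 OLs. This gene was lower in control OLs (log2 fold change -1.76, SE 0.19, adjusted p = 0.00121), and with the inhibitor was not called (log2 fold change 0.25, SE 0.11, adjusted p = 0.125). Of the alpha counts, Gabra3 went from 23.8 and 25.9% in control OPCs to 65.3 and 59.2% in anti-miR-145 OPCs, and Gabra4 from 32.7 and 32.4% to 7.93 and 8.84%.

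Gabrb2 was at 1.32 and 0.821 CPM in control OPCs, 0.779 and 1.31 in anti-miR-145 OPCs, 0.151 and 0.184 in control OLs, 0.0575 and 0.0253 in miR-145 OLs and 0.0982 and 0.140 in miR-145/miR-219 OLs. Gabrb2 was lower in control OLs than in control OPCs (log2 fold change -2.68, SE 0.45, adjusted p = 0.00525), and in OPCs it was not called with the inhibitor (log2 fold change -0.05). Gabrg3, Gabrr1, Gabrr2 and Gabrr3 stayed at or below 0.871 CPM and were called in no comparison of all 4 libraries by the unpaired edgeR test. With the replicate numbers crossed as a block, edgeR called Gabrg3 lower with the inhibitor (log2 fold change -2.26, adjusted p = 0.0467).

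With the miR-145 mimic alone, 6 of the 33 receptor genes tested in OLs had an unadjusted p under 0.05 (18.2%, against 13.4% of all genes), and all 6 were higher with the mimic. Groups did not overlap for 15 of the 33 (45.5%, against 47.3% of all genes), 11 of them higher. Their share without overlap was close to that of all genes. Over all genes these counts were not split by direction, so the directions are not read as particular to the receptor genes. The median log2 fold change was -0.03, against -0.01 over all genes, and lay between 0.0634 and 0.25 when any 1 library was left out. The 5 smallest p-values belonged to Gabra2 (log2 fold change 1.43, SE 0.16, adjusted p = 0.158), Gria1 (log2 fold change 1.62, SE 0.21, adjusted p = 0.158), Gabrb1 (log2 fold change 1.13, SE 0.24, adjusted p = 0.177), Grm5 (log2 fold change 0.98, SE 0.24, adjusted p = 0.203) and Grin2c (log2 fold change 2.22, SE 0.80, adjusted p = 0.344). For Gabra2 the control OL libraries were at 20.9 and 18.7 CPM and the miR-145 OL libraries at 59.6 and 46.7. DESeq2 called the first 4 of these genes and no other receptor gene, with 4.2% of all genes called, giving adjusted p = 1.26e-08 for Gabra2, 4.33e-07 for Gria1, 0.0127 for Grm5 and 0.0129 for Gabrb1. Of the miR-145 OL libraries, replicate 1 held Grin2c at 11.1 CPM and replicate 2 at 2.20.

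**Figure D5:**
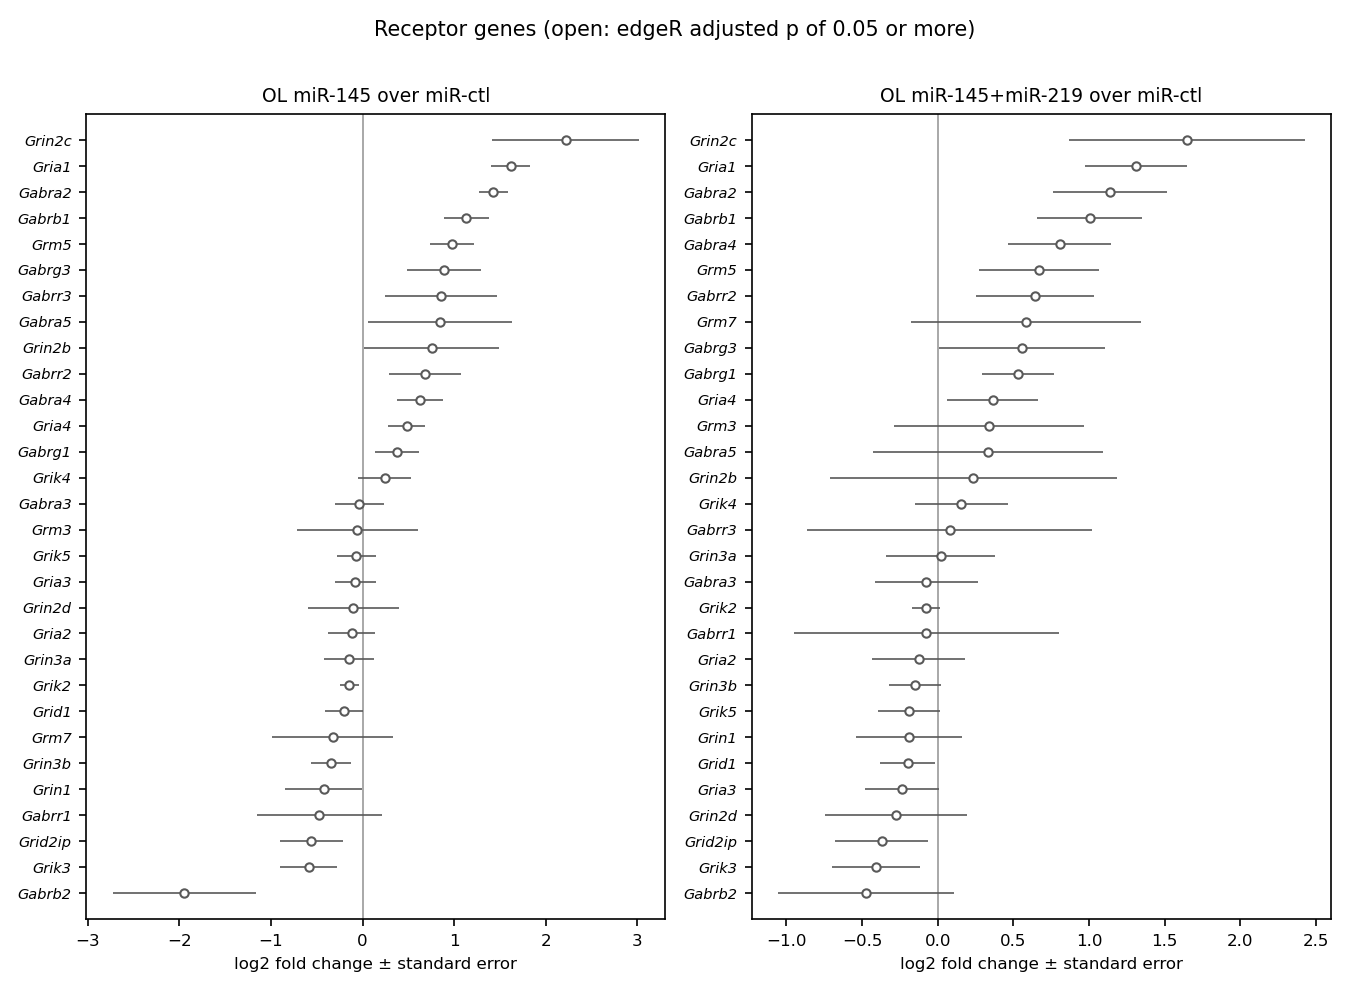
Log2 fold change of the receptor genes reported by name in OLs, with its standard error, for the miR-145 mimic (left) and both mimics (right) over control OLs. No point is filled, since none passed an adjusted p of 0.05 in edgeR, and Gria1, Gabra2 and Gabrb1 lie at 1.00 or more in both panels, which share the control OL libraries.

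Markers of other cells were counted in the same comparison, where no gene was called and 47.3% of all genes did not overlap in either direction. The astrocyte sum was 8546 to 12481 CPM in miR-145 OLs and 5214 to 6214 in control OLs, with 7 of 8 astrocyte genes higher without overlap (none called, median log2 fold change 0.87). Microglial genes gave 3 of 10 higher without overlap (median 0.79, sums 372 to 959.7 against 379.6 to 565), and fibroblast or mural genes 5 of the 5 tested (median 2.57, sums 50.5 to 85.3 against 21.0 to 30.7). Oligodendrocyte genes had 3 of 10 lower without overlap (median -0.24), progenitor genes 2 of 6 lower, neuronal genes 4 of 12 higher and 2 lower, and endothelial genes 2 of 4 higher and 2 lower. Their part in the receptor values was not tested.

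With both mimics, 3 of 33 receptor genes had an unadjusted p under 0.05 (9.09%, against 6.19% of all genes), all higher, and none was called, as for 0% of all genes. Groups did not overlap for 10 of the 33 (30.3%, against 36.8% of all genes). Here too the counts over all genes were not split by direction. The 5 smallest p-values were those of Gria1 (log2 fold change 1.31, SE 0.34, adjusted p = 0.8), Gabra2 (log2 fold change 1.14, SE 0.38, adjusted p = 0.8), Gabrb1 (log2 fold change 1.00, SE 0.35, adjusted p = 0.8), Gabra4 (log2 fold change 0.81, SE 0.34, adjusted p = 0.814) and Gabrg1 (log2 fold change 0.53, SE 0.24, adjusted p = 0.814). DESeq2 called Gria1 alone (adjusted p = 0.0438), with 0.687% of all genes called. The astrocyte sum was 6176 to 10265 CPM here, with 4 of 8 genes higher without overlap, as were 4 of 10 microglial and 4 of 4 fibroblast or mural genes. Lower without overlap were 3 of 4 endothelial genes (1 higher, median log2 fold change -0.92), 2 of 6 progenitor genes and 2 of 11 neuronal genes (3 higher), and oligodendrocyte genes had 1 of 10 on either side. Their part in the receptor values was not tested. Set directly against the miR-145 mimic alone, the second mimic gave no receptor gene of 34 with an unadjusted p under 0.05 (1.47% of all genes), no call by edgeR (0%) or DESeq2 (0.0581%), and 4 genes that did not overlap (11.8%, against 24.8% of all genes). The 5 smallest p-values in that direct comparison belonged to Grm7, Gabrg1, Grin2a, Gria1 and Grik5, with log2 fold changes of 0.89, 0.15, 0.82, -0.32 and -0.13 and adjusted p = 1 for each.

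Partners of the receptors were counted from lists chosen by function, and in the 3 OL comparisons no gene of any list was called. The counts of all lists below are to be read beside the shares of all genes called. These were 12.1% higher and 16% lower with the inhibitor, and 28.8% higher and 28.7% lower in control OLs. Of 20 genes for AMPA auxiliary subunits and trafficking, 17 were tested in OPCs, and with the inhibitor 5 rose and 3 fell. Nptxr, the neuronal pentraxin receptor that clusters AMPA receptors, was at 254 and 295 CPM in control OPCs, 3251 and 3129 in anti-miR-145 OPCs and 19.1 to 28.2 over the 6 OL libraries, a rise larger than that of any receptor gene (log2 fold change 3.52, SE 0.11, adjusted p = 1.63e-05). Olfm2, a secreted AMPA receptor partner, fell (log2 fold change -0.76, SE 0.09, adjusted p = 0.00088), as did the auxiliary subunit Cacng4 (log2 fold change -0.55, SE 0.08, adjusted p = 0.00339). Between control OLs and control OPCs 2 of the 17 were higher and 9 lower, among them Cnih2 (log2 fold change -2.56, SE 0.09, adjusted p = 5.17e-05) and Cacng8 (log2 fold change -3.96, SE 0.16, adjusted p = 6.6e-05), both auxiliary subunits.

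Among 7 kainate and delta partners, 6 were tested in OPCs: the inhibitor lowered Neto2, a kainate auxiliary subunit, (log2 fold change -0.58, SE 0.08, adjusted p = 0.0025) and Grid2ip, counted above. Cbln4, a cerebellin, was called higher, at 0.276 and 0.322 CPM against 0.0231 and 0.0274 in control OPCs, and no fold is given because the control values lie below the limit of 3 counts. In the stage comparison 4 of 5 were lower in OLs and none higher. Glutamate receptor scaffolds, 15 genes, split into 4 that rose and 5 that fell with the inhibitor, and 3 higher and 9 lower in control OLs. Dlgap1 fell with the inhibitor (log2 fold change -0.65, SE 0.10, adjusted p = 0.00428) and Dlg4, which codes for the main postsynaptic density scaffold, rose (log2 fold change 0.40, SE 0.08, adjusted p = 0.0103).

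GABA receptor genes outside the symbol rule included the GABA-B pair, and of those tested 2 of 4 were higher and 1 lower in control OLs and 1 of 3 fell with the inhibitor. Gabbr2 was higher in control OLs than in control OPCs (log2 fold change 3.68, SE 0.21, adjusted p = 0.000165) and fell with the inhibitor (log2 fold change -0.66, SE 0.12, adjusted p = 0.0077), and Gabbr1 was higher in OLs (log2 fold change 1.14, SE 0.08, adjusted p = 0.000302). Of 9 GABA receptor partners tested, 2 rose and none fell with the inhibitor, and 3 were higher and 2 lower in control OLs. Genes for transmitter supply and uptake gave 1 rise and 3 falls among 14 with the inhibitor, and 6 higher and 5 lower in control OLs. Gad1, which makes GABA, was at 13.9 and 13.1 CPM in control OPCs and 0.879 and 1.23 in control OLs (log2 fold change -3.70, SE 0.21, adjusted p = 0.000152). The glutamate uptake gene Slc1a3, also an astrocyte marker, fell with the inhibitor (log2 fold change -1.06, SE 0.11, adjusted p = 0.000492). Of 5 genes for subunit editing and chloride transport, 1 rose and 2 fell with the inhibitor and 2 were higher and 3 lower in control OLs. Adar, an RNA editing enzyme, fell with the inhibitor (log2 fold change -1.21, SE 0.10, adjusted p = 0.000293), and so did Slc12a5, the chloride exporter (log2 fold change -1.48, SE 0.25, adjusted p = 0.0051). The 1 that rose was Adarb1, also an editing gene, at 22.6 and 25.9 CPM in anti-miR-145 OPCs against 16.8 and 16.4 in control OPCs.

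In the OPC comparison genes of the marker lists were called, and not in 1 direction. Of 10 microglial genes 6 rose and 3 fell with the inhibitor (sums 852 to 1055 against 841 to 886 CPM), of 12 neuronal genes tested 5 rose and none fell (sums 200.1 to 202 against 138 in both control libraries), and of 7 astrocyte genes 1 rose and 3 fell (sums 402 to 447 against 623 to 655). Gfap rose from 8.12 and 7.80 to 41.2 and 51.8 CPM, and Slc1a3 fell. Of 6 progenitor genes 2 rose and 2 fell, and of 10 oligodendrocyte genes 2 rose and 2 fell. No fibroblast or mural gene was called among 4 tested, and 1 endothelial gene fell among 4. Of 10 oligodendrocyte genes 9 were higher in control OLs than in control OPCs and all 6 progenitor genes lower. Between the same groups, 7 of 8 astrocyte genes were higher in control OLs and none lower, 7 of 12 neuronal genes were lower and 1 higher, 4 of 10 microglial genes were lower and 1 higher, 2 of 4 fibroblast or mural genes were higher and none lower, and 2 of 4 endothelial genes were higher and 2 lower. Their part in the receptor values was not tested.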

How the data were processed

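The data were 10 RNA-seq libraries (stranded mRNA kit) of rat OLs and OPCs, 2 per group, grouped by their titles. The deposited table holds estimated counts per gene, which the authors made with Salmon (version 0.12.0 in the submitters' processing notes) against GENCODE Rnor6.0 transcripts and summed per gene with tximport; 16.0 to 17.5% of values were not whole, and counts were rounded. Estimated counts can split reads among similar transcripts, and no receptor gene shared its symbol or ID. Symbols came from the deposited DESeq2 table, whose other columns hold the authors' fold changes and p-values and were not used. A gene was tested in a comparison if 2 or more of its 4 libraries held 5 or more counts, using edgeR 4.0.16 (R 4.3.3) quasi-likelihood fits, TMM scaling and Benjamini-Hochberg adjustment over all genes, called at 0.05. The study's own tool was DESeq2, which is an alternative here (1.42.0). CPM used TMM over all 10 libraries, and the SE is the absolute log2 fold change over the square root of F. The models were tested on simulated data.

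Alternatives were DESeq2, its size factors in edgeR, no filter, at least 10 counts, all 5 groups in 1 fit, a replicate block and leaving out each library. Values in every library are given for called genes, for genes with a group mean of at least 5 CPM, and for the 5 smallest p-values where no gene was called; from each list at most 3 called genes are named. The receptor genes and lists were chosen with earlier results of these data known. Symbols of all 38 genes matched RefSeq (GRCr8), used for sequences and gene order only, since the files use Rnor6.0. Levels between genes were not compared. Values of some genes are not reported here, although all counts, medians and sums include them. No column of the count table was left unmapped.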

Additional observations from a re-analysis of the deposited data

How the results depend on the processing

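DESeq2 called 4 receptor genes with the miR-145 mimic, all higher, and 1 with both mimics, where edgeR called 0. Over all genes it called 649, 106 and 9 in the 3 OL comparisons, not split by direction, where edgeR again called 0. In the inhibitor comparison all 5 groups in 1 fit called 7, against 13 (2553 against 4348 of all genes). Leaving out 1 library at a time gave 8 to 19 calls with the inhibitor and 14 to 26 between the stages (2348 to 7133 and 4780 to 10306 of all genes), and none in the OL comparisons. The median log2 fold change then ran from 0.0634 to 0.25 for the miR-145 mimic (-0.03 with all libraries), -0.0753 to 0.37 for both mimics, -0.33 to 0.13 for both against one mimic, -0.77 to -0.27 for the inhibitor and -0.83 to -0.12 for the stages. Gria2 between the stages, -0.06 and not called, was 0.24 and called higher in OLs without replicate 2 of control OLs, and -0.42 and called lower without replicate 1. Levels under 3 counts (0.0920 CPM at most) could not be told from 0. No filter, at least 10 counts and DESeq2 size factors in edgeR kept every count of receptor genes within 1.5 times. The cause of these changes was not tested.

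The labels do not tie replicate numbers to cultures, so the libraries were not treated as paired. Deviations of same-numbered libraries correlated at 0.40 (miR-145 mimic), 0.47 (both mimics), 0.63 (both against one), -0.15 (inhibitor) and 0.07 (stages). With the replicate number as a block, the miR-145 mimic comparison called 9 receptor genes of 2272 genes in all, with a median of 0.0536: Gria1, Gria4, Gabra2, Gabra4, Gabrb1, Gabrg1, Grin2c and Grm5 higher and Grik3 lower. The block moved no other count of receptor genes by over 1.5 times, and called 132 and 184 of all genes with both mimics, against control and against the miR-145 mimic, where none had been called. Because the inhibitor correlation was below -0.1, the numbers were also crossed as a block there, a choice made after seeing the data, which gave 19 calls among receptor genes and 5536 among all genes.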
